A study of Mus musculus with 8 samples.

Results

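The 7 genes described here mark megakaryocytes and the platelets they release. They are Pf4, Ppbp, Itga2b, Itgb3, Gp1ba, Gp9 and Gp5, taken by name from a table of 27179 genes, and all 7 were found there by Entrez gene ID. They were read in whole spines of E18.5 mouse embryos, profiled by mRNA sequencing in 8 libraries. The groups were male Pax1-Enh knockout (KO), male wild type (WT), female KO and female WT, with 2 libraries each, named below by sex, genotype and replicate number (male KO 1). The KO mice lack a genomic region that the series title ties to Pax1, a transcription factor gene of the embryonic spine, and to sex. Whether 1 or both alleles carried the deletion is not given in the sources used here. The labels do not say whether a library came from 1 embryo, so p-values measure the spread between these libraries, which may be technical.

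Megakaryocytes are the large polyploid cells of blood-forming tissue that shed platelets. Around birth in the mouse they are found in the fetal liver, the spleen and the marrow that is forming inside bones such as the vertebrae. Platelets stick to damaged vessel walls through the GPIb-IX-V complex, aggregate through the integrin alphaIIb-beta3, and release granules that hold the chemokines encoded by Pf4 and Ppbp. In bulk tissue, fewer cells of a type and less RNA per cell cannot be told apart.

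Library totals ran from 59722279 to 67575728 counts in KO and from 35181518 to 48021848 counts in WT, so depth and genotype cannot be told apart. The mitochondrial share of counts was 4.56% to 15.6% in KO and 5.55% to 20.9% in WT. Summed adipocyte markers were 245 to 475 CPM in KO and 829 to 5470 CPM in WT. CPM is the count scaled to a common, TMM-normalised library size. Of the adipocyte markers, male WT 1 and female WT 2 held far more than any other library, at 5310 and 5470 CPM. Male KO 1, male WT 1 and male WT 2 stood apart in hepatocyte markers, with sums of 1210, 1170 and 961 CPM against 81.2 to 191 CPM in the other 5 libraries. The fetal liver also makes megakaryocytes, and the part of liver RNA in the values below was not tested.

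All 7 genes were detected in every library, at levels that spanned more than 2 orders of magnitude per exon length. Pf4 was highest, with a mean over the 8 libraries of 46.0 CPM per kilobase of exon and a range of 30.9 to 66.6. Itgb3 followed at 7.66 (3.69 to 13.9), then Ppbp at 1.37 (0.499 to 3.72) and Itga2b at 0.632 (0.528 to 0.824). The 3 genes of the GPIb-IX-V complex were lowest, with Gp9 at 0.469 (0.252 to 0.812), Gp1ba at 0.347 (0.215 to 0.505) and Gp5 at 0.168 (0.0922 to 0.244). The range of Pf4 overlapped that of no other member, while each other neighbouring pair in this order overlapped, Itgb3 and Ppbp only at their edges. Pf4 and Itgb3 together carried most of the members' signal, at 39.0% and 53.1% of their summed CPM. The exon lengths are from GENCODE M21, whose bounds for Gp1ba and Gp9 are narrower than those in RefSeq. The annotation used for counting was not given, so the order of Gp9 and Gp1ba per exon length is uncertain. Without length, Gp1ba (mean 0.943 CPM) was above Gp9 (0.413 CPM).

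**Figure D1:**
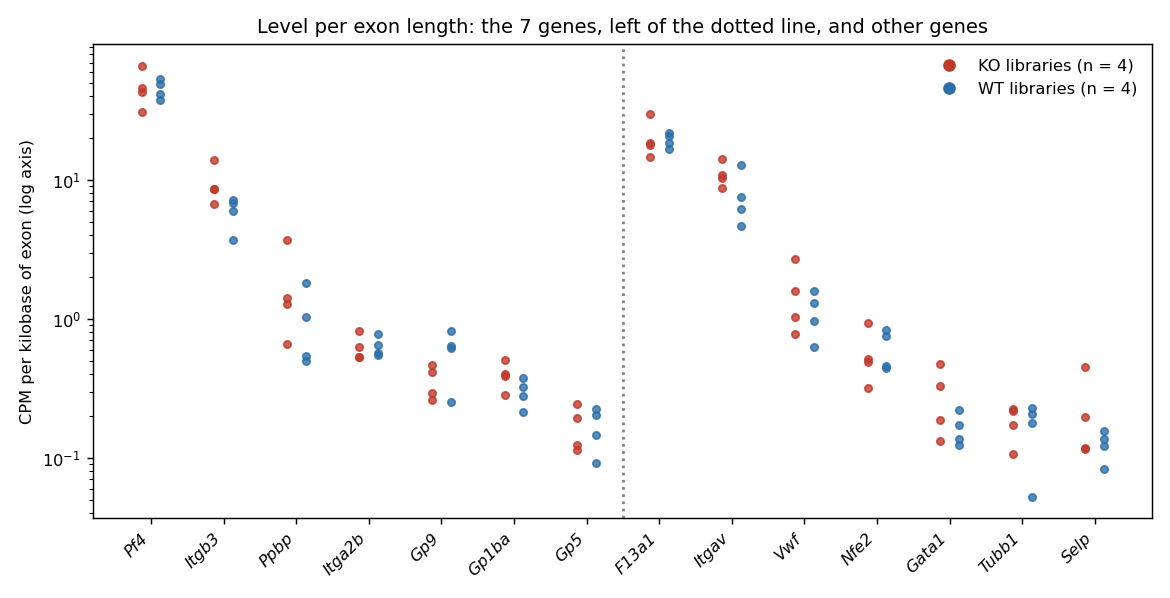
CPM per kilobase of exon, on a log axis, for the 7 genes (left of the dotted line) and 7 other genes, with 1 point for each KO and WT library. Pf4 lies between 30.9 and 66.6 in all 8 libraries, above every other gene shown, while Gp5 lies between 0.0922 and 0.244.

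Pf4 and Ppbp encode platelet factor 4 (CXCL4) and pro-platelet basic protein (CXCL7), CXC chemokines stored in alpha granules. They are neighbours on chromosome 5 of mm10, Ppbp at 90768518 to 90770063 and Pf4 at 90772435 to 90773383, with 2371 bases between them. The 250 bases before each annotated start are shown in full because the pair shares a chromosome neighbourhood and differs in level. The promoters of Itga2b and Gp1ba stand beside them as other members of the set. The sequences are from RefSeq on GRCm38.p6, which is the mm10 build, and for Gp1ba and Gp9 the start used there lies inside the gene's outer bounds. In GENCODE M21 the start of Itga2b is at 102470122, so most of its window, with both ETS matches, is inside the gene there. Capitals mark an ETS core (AGGAAG or CGGAAG) or a GATA motif (AGATAA or AGATAG or TGATAA or TGATAG) on either strand.
Pf4 (chr5:90772185-90772434, + strand): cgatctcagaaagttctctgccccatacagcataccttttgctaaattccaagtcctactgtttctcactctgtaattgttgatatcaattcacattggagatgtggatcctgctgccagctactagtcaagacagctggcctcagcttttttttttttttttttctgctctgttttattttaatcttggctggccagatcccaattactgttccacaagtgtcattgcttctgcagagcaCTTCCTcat
Ppbp (chr5:90768268-90768517, + strand): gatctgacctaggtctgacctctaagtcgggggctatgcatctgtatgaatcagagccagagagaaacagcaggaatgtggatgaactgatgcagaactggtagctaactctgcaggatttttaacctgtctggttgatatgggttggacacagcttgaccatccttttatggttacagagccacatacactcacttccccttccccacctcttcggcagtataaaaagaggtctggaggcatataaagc
Itga2b (chr11:102469884-102470133, - strand): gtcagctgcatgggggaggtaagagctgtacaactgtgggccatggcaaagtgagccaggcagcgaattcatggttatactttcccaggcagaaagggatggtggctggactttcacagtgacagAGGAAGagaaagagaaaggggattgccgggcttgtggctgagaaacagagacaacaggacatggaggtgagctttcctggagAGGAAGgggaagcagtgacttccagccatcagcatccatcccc
Gp1ba (chr11:70638872-70639121, + strand): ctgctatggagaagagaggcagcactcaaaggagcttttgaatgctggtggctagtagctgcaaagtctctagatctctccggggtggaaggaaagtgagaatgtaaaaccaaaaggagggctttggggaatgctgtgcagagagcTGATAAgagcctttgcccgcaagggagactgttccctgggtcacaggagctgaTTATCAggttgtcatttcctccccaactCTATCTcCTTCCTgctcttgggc

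GATA1 and the ETS factor FLI1 are transcription factors of the megakaryocyte lineage. Among the 6 members with a RefSeq promoter (all but Itgb3), an ETS core stood in 5, and in 39.2% of all 32851 windows of that length. Its first base lay 9 bases before the start in Pf4, 16 in Gp1ba, 16 in Gp9, 48 in Gp5, and 125 and 43 in Itga2b. A GATA motif stood in 2 of the 6 (26.5% of all windows), with 3 matches in Gp1ba and 3 in Gp5, none of which overlapped an ETS match. The RUNX motif TGTGGT was found in 1, Gp9 (14.0% of all windows). Ppbp held none of these letters in its window. A match is a description of the letters and no evidence of binding.

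Pf4 was measured at 33.1 and 48.0 CPM in male KO and at 38.6 and 29.8 CPM in male WT. In females it was at 30.9 and 22.3 CPM in KO and at 27.3 and 35.5 CPM in WT. The genotypes overlapped in each sex, and the highest and the lowest of the 8 values were both KO libraries (male KO 2 and female KO 2). In edgeR, Pf4 in KO differed from WT by 0.25 ± 0.29 log2 units among males (± SE, adjusted p = 0.688), by -0.24 ± 0.29 among females (adjusted p = 0.742) and by 0.00 ± 0.22 with both sexes fitted together (adjusted p = 0.999). The last of these has a 95% interval of 0.714 to 1.41 as a fold.

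Ppbp was at 1.53 and 4.03 CPM in male KO and at 1.95 and 1.13 CPM in male WT. In females it was at 1.39 and 0.712 CPM in KO and at 0.540 and 0.582 CPM in WT. Male KO 2 was the highest library by a wide margin, and the genotypes overlapped in males and not in females. These values rest on 50 to 217 counts in KO libraries and 21 to 79 counts in WT libraries. Ppbp in KO differed from WT by 0.85 ± 0.55 log2 units among males (± SE, adjusted p = 0.468), by 0.90 ± 0.58 among females (adjusted p = 0.588) and by 0.87 ± 0.39 with both sexes fitted together (adjusted p = 0.737). Its unadjusted p for both sexes was 0.0507 in edgeR. The fold over both sexes was 1.83 with a 95% interval of 0.998 to 3.36. Without male KO 2 the log2 value was 0.00 in males and 0.53 over both, and the female value was 0.34 without female KO 1. Of all members Ppbp varied most between libraries, 7.47-fold from highest to lowest, against 2.15-fold for Pf4.

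Per exon length, Ppbp stood at 0.0308 and 0.0559 of the Pf4 level in male KO and at 0.0336 and 0.0253 in male WT. In females the ratio was 0.0301 and 0.0212 in KO and 0.0132 and 0.0109 in WT. The ratio was thus higher in both female KO libraries than in either female WT library, and its spread over the 8 libraries was 5.13-fold. Ppbp alone did not overlap in females either, as 52.1% of all genes did not. Cxcl5, the next chemokine gene, 6892 bases from Ppbp, was close to the limit of counting and had 6, 8, 8 and 8 counts in KO and 2, 5, 3 and 0 in WT. Of Cxcl1, Cxcl2, Cxcl3, Cxcl5 and Cxcl15, only Cxcl15 passed the filter on low counts.

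Pf4 followed another gene of the wider platelet lists closely, F13a1, the A chain of coagulation factor XIII, which platelets and macrophages both hold. The pair was chosen after the values were seen. The ratio of Pf4 to F13a1 per exon length ran only from 1.89 to 2.67, a 1.41-fold span, while F13a1 itself ran from 98.7 to 200 CPM in KO and from 112 to 147 CPM in WT. By Pearson correlation of log2 CPM over the 8 libraries, the genes most like Pf4 among 15158 searched were Fcgr3 (r = 0.965), an Fc receptor of myeloid cells, and Ly6a2 and Cr1l (r = 0.953 each). These are descriptions over libraries that differ in depth and tissue makeup. The 9 macrophage markers had a median r with Pf4 of 0.54, the 9 mast cell and basophil markers 0.67 and the 8 neutrophil markers 0.65, against -0.01 over all tested genes. The 12 transcription factors of the megakaryocyte list had 0.06 and the 13 receptors tested had 0.03. Summed macrophage markers were at 261 to 410 CPM in KO and 278 to 353 CPM in WT, mast cell markers at 91.8 to 332 CPM in KO and 134 to 224 CPM in WT, and neutrophil markers at 110 to 1020 CPM in KO and 162 to 1240 CPM in WT. None of the markers of these 3 lists was at 0 in any library, and their part in the Pf4 values was not tested.

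**Figure D2:**
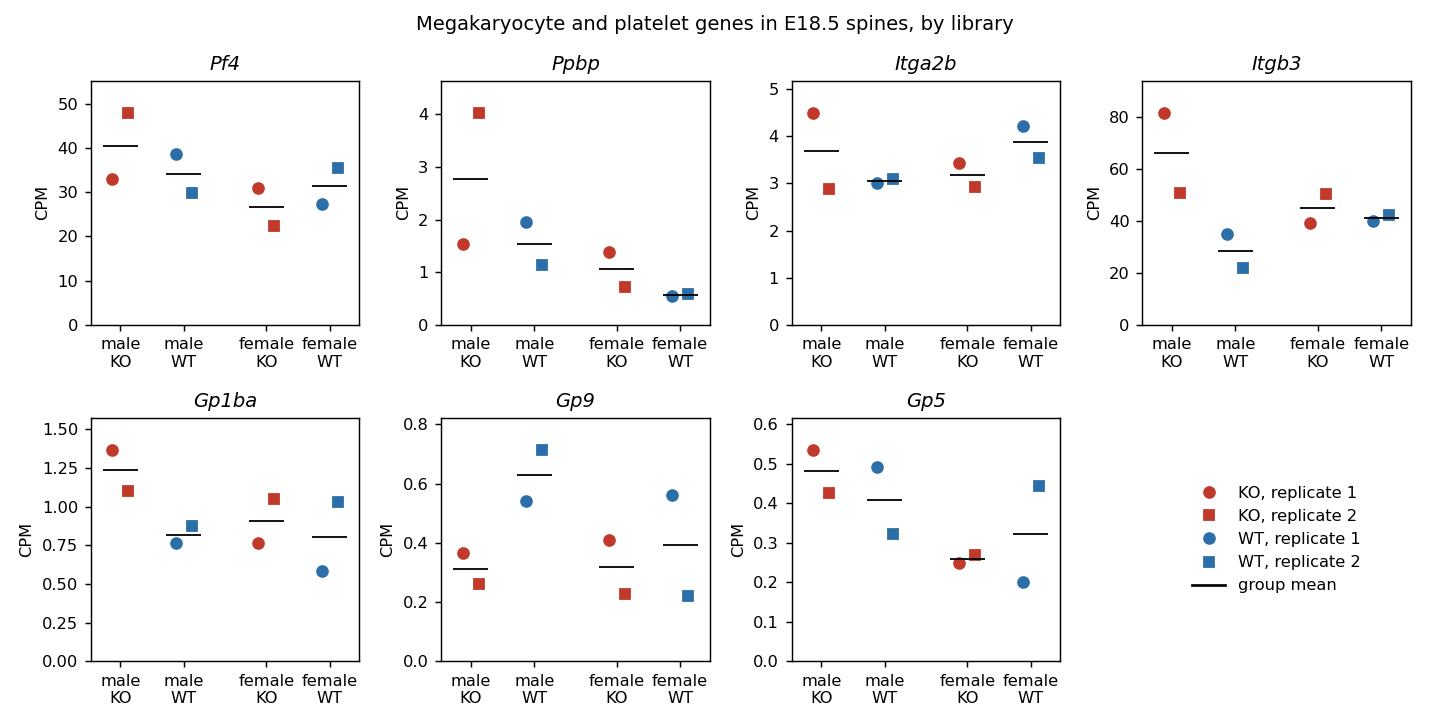
CPM of each of the 7 genes (vertical axes, starting at 0) in the 8 libraries, grouped by sex and genotype, with the mean of each pair as a line. Itgb3 is higher in both male KO libraries (81.8 and 50.7) than in both male WT libraries (35.0 and 21.8), while Pf4 overlaps between the genotypes in each sex.

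Itga2b and Itgb3 encode the alphaIIb and beta3 chains of the platelet fibrinogen receptor. The alphaIIb chain is largely restricted to the megakaryocyte lineage and early blood progenitors. The beta3 chain also pairs with alphaV, encoded by Itgav, in osteoclasts, endothelium and other cells. Itga2b lies on chromosome 11 at 102453297 to 102469883, and Itgb3 on the same chromosome at 104608000 to 104670476 (mm10).

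Itgb3 was at 81.8 and 50.7 CPM in male KO and at 35.0 and 21.8 CPM in male WT. In females it was at 39.4 and 50.4 CPM in KO and at 40.1 and 42.3 CPM in WT. The male genotypes did not overlap, male KO 1 was the highest and male WT 2 the lowest library, and the female genotypes overlapped. The mean was 66.2 ± 22 CPM in male KO and 28.4 ± 9.39 CPM in male WT (SD, n = 2 each). On the log2 scale male KO stood 1.22 ± 0.32 above male WT (± SE, unadjusted p = 0.00426 in edgeR), which is 2.33-fold with a 95% interval of 1.41 to 3.85. The adjusted p was 0.239 in edgeR, so it did not pass the threshold of 0.05. DESeq2 called Itgb3 (log2 fold change 1.26, adjusted p = 0.0222), the only member it called in any of the 4 comparisons. Of all 18104 genes, DESeq2 called 334 (1.84%) as higher in male KO than in male WT. Among females the difference was 0.12 ± 0.31 (adjusted p = 0.885), and with both sexes fitted together 0.67 ± 0.29 (unadjusted p = 0.0441, adjusted p = 0.728). Subtracting the male from the female difference gave -1.10 ± 0.44 (unadjusted p = 0.0365, adjusted p = 0.284), so the sexes were not shown to differ. With 1 library dropped at a time the male value ran from 0.84, when male KO 1 was absent, to 1.61, when male WT 1 was absent. Dropping male KO 1 gave 0.42 for both sexes together.

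Itga2b was at 4.50 and 2.88 CPM in male KO and at 3.01 and 3.09 CPM in male WT. In females it was at 3.43 and 2.92 CPM in KO and at 4.23 and 3.55 CPM in WT. Male KO 1 was the highest and male KO 2 the lowest library, and both female KO libraries lay below both female WT libraries. KO differed from WT in Itga2b by 0.28 ± 0.31 log2 units among males (± SE, adjusted p = 0.681), by -0.29 ± 0.31 among females (adjusted p = 0.715) and by -0.01 ± 0.24 with both sexes fitted together (adjusted p = 0.999). The 95% interval of the fold over both was 0.680 to 1.45. Of the 7 genes Itga2b varied least, 1.56-fold between its highest and lowest library.

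The 2 chains of the receptor were far from equal at the RNA level. Per exon length Itga2b was at 0.0595 and 0.0615 of Itgb3 in male KO and at 0.0929 and 0.154 in male WT. In females the ratio was 0.0942 and 0.0626 in KO and 0.114 and 0.0906 in WT. The ratio was lower in both male KO libraries than in either male WT library, and the female values overlapped. In males 43.7% of all genes did not overlap between the genotypes, Itgb3 among them, while Itga2b did overlap. The order of this ratio is therefore no result separate from that of Itgb3. Itgb3 was much nearer to Itgav, with a ratio of 0.607 to 1.28 in KO and 0.287 to 1.54 in WT. Itgav itself was at 116 and 152 CPM in male KO, 80.7 and 138 CPM in male WT, 93.2 and 112 CPM in female KO, and 66.1 and 50.1 CPM in female WT (log2 fold change over both 0.56, SE 0.23, adjusted p = 0.728).

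Markers of osteoclasts, the cells that resorb bone and mineralised cartilage, were among several lists that were higher in male KO beside Itgb3, none of them called. The 10 osteoclast genes summed to 2140 and 1660 CPM in male KO, 1140 and 835 CPM in male WT, 1440 and 1360 CPM in female KO, and 1090 and 1290 CPM in female WT. In males all 10 had positive log2 fold changes (median 0.73, and 5 with unadjusted p under 0.05, against 7.53% of all genes as higher at that p), and 0 passed in edgeR after adjustment over all genes. None of the 10 was at 0 in any library. In males the values were also positive for all 5 pan-leukocyte markers (median 0.88), all 8 cartilage markers (0.95), all 9 mast cell and basophil markers (0.81), all 8 muscle markers (0.77) and all 7 B-lymphoid markers (0.72). Mmp9, a protease of osteoclasts and neutrophils, was among the genes most like Itgb3 over the 8 libraries (Pearson r = 0.988), after Timp2 (r = 0.989) and Pcnt (r = 0.988). The median r with Itgb3 was 0.75 over the 10 osteoclast genes (range -0.10 to 0.99) and 0.72 over the 5 pan-leukocyte genes, against 0.11 over the 12 megakaryocyte transcription factors and -0.06 over all tested genes. It was 0.64 over endothelial, 0.62 over muscle and 0.62 over cartilage markers. An r over 0.8 was found for 4 of the 10 osteoclast genes (40%), 4 of the 8 muscle genes (50%) and 4.77% of all tested genes. The part of osteoclasts or other cells in the Itgb3 values was not tested. Beside these values stands the mitochondrial share, which was lowest in male KO 1 (4.56%) and highest in male WT 2 (20.9%), the libraries with the highest and lowest Itgb3. With that share as a covariate the male log2 fold change of Itgb3 was 0.64 (SE 0.30, adjusted p = 0.427). The share was 4.56% and 15.6% in male KO and 18.3% and 20.9% in male WT. Among males it therefore cannot be told apart from genotype, and its part in the Itgb3 values was not tested.

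**Figure D3:**
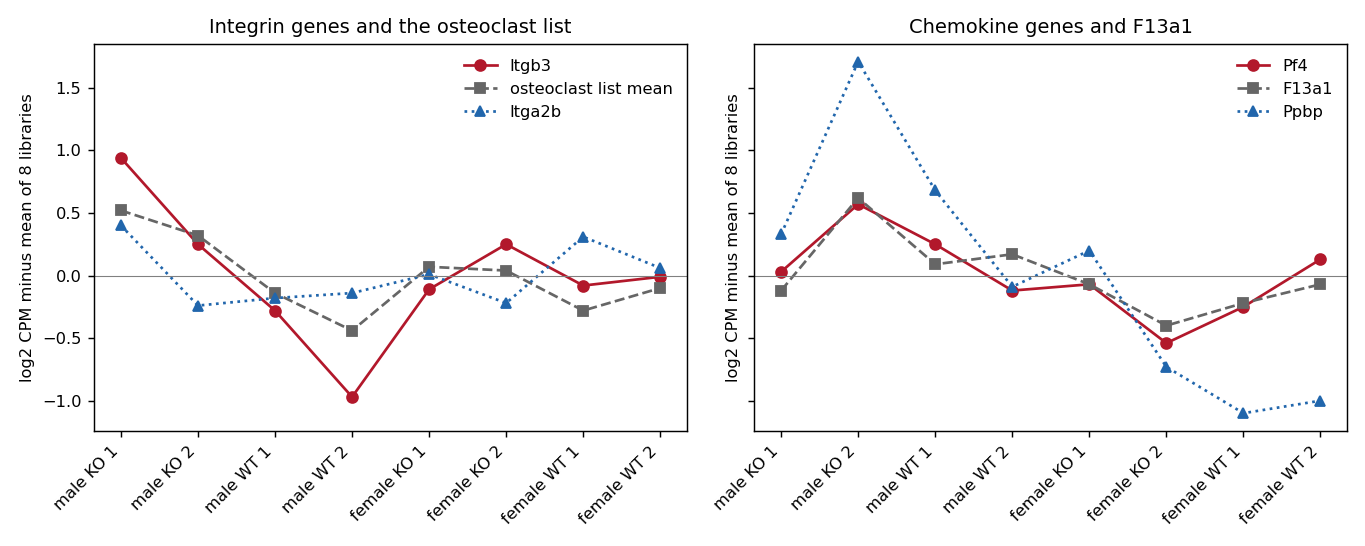
Log2 CPM minus the mean over the 8 libraries, by library. On the left, Itgb3 and the mean of 10 osteoclast genes are both highest in male KO 1 (0.94 and 0.52) and lowest in male WT 2 (-0.97 and -0.44), while Itga2b spans -0.24 to 0.40. On the right, Pf4 and F13a1 stay close together and Ppbp spans -1.10 to 1.71.

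Gp1ba, Gp9 and Gp5 encode the leucine-rich glycoproteins GPIb alpha, GPIX and GPV of the platelet receptor for von Willebrand factor. GPIb alpha binds the ligand, GPIX is needed to bring the complex to the surface, and GPV is loosely attached and is cleaved by thrombin. Gp1ba lies on chromosome 11 at 70639102 to 70643986, Gp9 on chromosome 6 at 87776131 to 87779786, and Gp5 on chromosome 16 at 30307685 to 30310781 (mm10). No exon of the 7 members overlapped an exon of another gene in GENCODE M21, although Gp1ba ends 32 bases from Slc25a11 in RefSeq.

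Gp1ba was at 1.37 and 1.10 CPM in male KO and at 0.764 and 0.877 CPM in male WT. Female values were 0.768 and 1.05 CPM in KO and 0.585 and 1.03 CPM in WT. The male genotypes did not overlap and the female ones did. For Gp1ba the KO mean stood off the WT mean by 0.59 ± 0.42 log2 units among males (± SE, adjusted p = 0.508), by 0.19 ± 0.43 among females (adjusted p = 0.870) and by 0.39 ± 0.30 with both sexes fitted together (adjusted p = 0.876).

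Gp9 ran the other way in males, at 0.366 and 0.260 CPM in male KO and at 0.542 and 0.715 CPM in male WT. Female Gp9 was at 0.411 and 0.228 CPM in KO and at 0.562 and 0.222 CPM in WT. The male KO libraries lay below the male WT libraries, and the female genotypes overlapped. The counts behind these values were small. They were 28 and 14 in male KO and 22 and 31 in male WT, and the 95% Poisson interval of the 14 counts in male KO 2 was 7.65 to 23.5. Gp9 in KO differed from WT by -0.99 ± 0.57 log2 units among males (± SE, adjusted p = 0.421), by -0.33 ± 0.58 among females (adjusted p = 0.833) and by -0.67 ± 0.41 with both sexes fitted together (adjusted p = 0.821).

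Gp5 was at 0.536 and 0.427 CPM in male KO and at 0.493 and 0.323 CPM in male WT. Female Gp5 was at 0.250 and 0.270 CPM in KO and at 0.202 and 0.443 CPM in WT. The genotypes overlapped in each sex. KO differed from WT in Gp5 by 0.25 ± 0.51 log2 units among males (± SE, adjusted p = 0.833), by -0.29 ± 0.55 among females (adjusted p = 0.844) and by -0.01 ± 0.37 with both sexes fitted together (adjusted p = 0.999). Its 95% interval of the fold over both sexes was 0.558 to 1.77, so a change within that range was not excluded.

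Among the 3 genes of 1 receptor complex, the ratio to Gp1ba varied more for Gp9 than for Gp5 (SD of the log2 ratio 0.92 and 0.38). Per exon length Gp9 stood at 0.823 and 0.732 of Gp1ba in male KO and at 2.19 and 2.52 in male WT. In females the ratio was 1.65 and 0.667 in KO and 2.97 and 0.667 in WT. The ratio was lower in both male KO libraries than in either male WT library, while female KO 2 and female WT 2 had the same value. Gp9 and Gp1ba alone did not overlap in males either, as 43.7% of all genes did not. The size of this ratio depends on the exon lengths used, and its order between libraries does not. Gp5 stayed closer to Gp1ba, at 0.318 to 0.483 of it in KO and 0.428 to 0.798 in WT. Counting error alone gives a coefficient of variation of 22.6% in Gp5, 21.9% in Gp9 and 13.9% in Gp1ba. Whether either ratio varied beyond counting error was not tested. The fourth subunit, GPIb beta, is encoded by Gp1bb, and 1902 of its 2087 exon bases are shared with Sept5 on the same strand. Its counts (172 to 394 in KO and 135 to 242 in WT) are therefore uncertain.

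**Figure D4:**
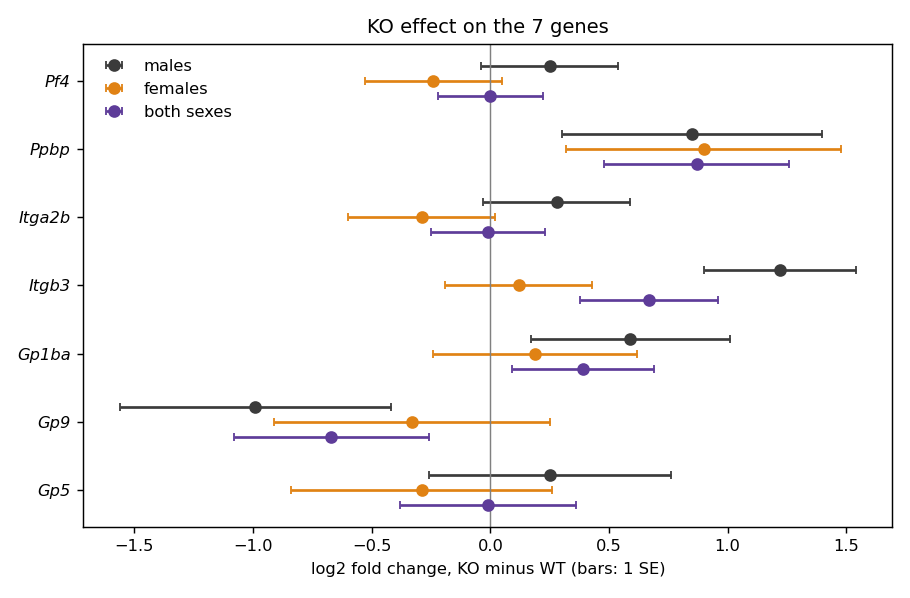
Log2 fold change of KO minus WT for the 7 genes in males, females and both sexes, with bars of 1 SE. The male Itgb3 value (1.22) lies farthest above 0 and the male Gp9 value (-0.99) farthest below, and no value passed the threshold in edgeR.

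Across the members, 0 of 7 passed the threshold in edgeR in males, in females, over both sexes or for the sex-by-genotype difference, where 0 of 18104 tested genes (0%) passed in each. At an unadjusted p under 0.05, 1 of the 7 (Itgb3) was so among males against 14.8% of all genes, and 0 among females against 9.27%. Over both sexes it was 1 (Itgb3) against 6.83%, and for the difference between the sexes 1 (Itgb3) against 16.7%, or 7.13% for negative differences only. Positive log2 fold changes were found for 6 of the 7 in males (45.4% of all genes), 3 in females (52.6%) and 4 over both sexes (48.9%), and positive differences between the sexes for 2 (51.7%). DESeq2 called 1 of the 7 in males, beside 2.66% of all genes, and 0 in females (0.811%), over both sexes (0.779%) and for the difference between the sexes (2.04%). In males 3 of the 7 (Itgb3, Gp1ba and Gp9) did not overlap between KO and WT, against 43.7% of all genes: 2 were higher in KO (19.7% of all genes) and 1 lower (23.9%). In females 2 did not overlap, against 52.1%, namely Ppbp, higher in KO (25.9%), and Itga2b, lower in KO (26.2%). Over both sexes it was 0 against 3.32%. Counts at or near the background say nothing of the members. As medians the 7 had log2 fold changes of 0.28 among males (all genes -0.06), -0.24 among females (all genes 0.03) and 0.00 with both sexes together (all genes -0.01).

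Members also differed from each other in their pattern over the libraries. Of the 21 pairs of members, 12 had a positive Pearson r of log2 CPM over the 8 libraries and 8 a negative one, with a median of 0.15. The highest was that of Pf4 and Ppbp (0.76) and the lowest that of Itgb3 and Gp9 (-0.61). Among the 10 genes most like the mean of the 7 were Il1rn (r = 0.972), which encodes the interleukin-1 receptor antagonist, and Evi2b (0.965). Also among them were Hoga1, Dhx58, Gm1966, Pou2af1, Lgmn, Fcna and Tnfrsf11a, with r from 0.933 to 0.957. None of these genes was on the wider megakaryocyte lists, and Tnfrsf11a, which encodes RANK, was on the osteoclast list. Counting error differs between members: it alone gives a coefficient of variation of 1.98% in Itgb3 and 22.6% in Gp5 at their mean counts, where the measured values were 38.5% and 33.4%.

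The wider megakaryocyte and platelet lists held 51 other genes, of which 49 were matched and passed the filter on low counts. In edgeR 0 of these passed the threshold in any of the 4 comparisons. At an unadjusted p under 0.05, 10 were higher and 1 lower in male KO than in male WT, 5 higher and 2 lower in females, and 5 higher and 0 lower over both sexes. The female minus male difference was positive for 4 and negative for 10 at that p. The same shares of all genes were 7.53% higher and 7.29% lower in males, 4.53% and 4.74% in females, 2.84% and 3.99% over both, and 9.61% positive and 7.13% negative for the difference between the sexes. Their median log2 fold change was 0.28 in males (all genes -0.06), -0.04 in females (all genes 0.03) and 0.02 over both sexes (all genes -0.01), and their median difference between the sexes was -0.25 (all genes 0.03). By list, positive values over both sexes were found for 4 of 13 receptors, 8 of 11 granule genes, 8 of 13 signalling and cytoskeletal genes and 6 of 12 transcription factors.

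Among receptors, Gp6, the platelet collagen receptor, had 4, 0, 2 and 3 counts in KO and 6, 0, 0 and 2 in WT and was not tested. Cd9, a tetraspanin of platelets and many other cells, was at 142 to 174 CPM in KO and at 92.4 to 112 CPM in WT without overlap (log2 fold change over both sexes 0.53, SE 0.16, adjusted p = 0.634). With KO higher, 1.68% of all genes did not overlap. F2rl2, the thrombin receptor PAR3, had 0.68 (SE 0.28, adjusted p = 0.722). Thpo, which encodes thrombopoietin, was at 0.497 to 0.928 CPM in KO and 0.607 to 1.01 CPM in WT (-0.16, SE 0.32, adjusted p = 0.984), and the log2 value was 0.04 without male KO 1.

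Among granule and matrix genes, Vwf, shared with endothelium, was at 12.5 to 43.2 CPM in KO and 10.1 to 25.5 CPM in WT, a log2 fold change of 0.50 (SE 0.42, adjusted p = 0.897) that was -0.09 without male KO 1. Selp, which encodes P-selectin, had 0.67 (SE 0.47, adjusted p = 0.851), and 0.21 without male KO 1. Thbs1 and F5 did not overlap between the genotypes, as 1.68% of all genes did not with KO higher. Thbs1, thrombospondin 1, which connective tissue cells also make, was at 264 to 420 CPM in KO and 120 to 210 CPM in WT (1.04, SE 0.23, adjusted p = 0.510). F5, coagulation factor V, was at 4.78 to 8.80 CPM in KO and 2.66 to 4.22 CPM in WT (0.93, SE 0.20, adjusted p = 0.510). Tubb1, the megakaryocyte beta-tubulin, had 8 to 24 counts in KO and 3 to 14 in WT, and its log2 fold change was 0.11 (SE 0.48, adjusted p = 0.994), and -0.18 without male WT 1. Plek and Rasgrp2, signalling proteins of platelets, had 0.32 (SE 0.19) and -0.27 (SE 0.17), and 0.16 and -0.16 without male KO 2.

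Among transcription factors, Runx1 was at 26.7, 23.1, 18.1 and 18.7 CPM in KO and at 13.7, 13.1, 13.5 and 12.2 CPM in WT. No WT library reached the lowest KO library, as in 1.68% of all genes, and the log2 fold change over both sexes was 0.71 (SE 0.16, adjusted p = 0.510). RUNX1 is also used in cartilage, bone and other blood cells. Gata1, the factor of erythroid cells, megakaryocytes and mast cells, was at 1.16 and 0.799 CPM in male KO, 0.419 and 0.300 in male WT, 0.321 and 0.456 in female KO, and 0.540 and 0.332 in female WT. KO differed from WT in Gata1 by 1.45 ± 0.48 log2 units among males (adjusted p = 0.274) and by -0.17 ± 0.49 among females (adjusted p = 0.898). Summed erythroid markers, which Gata1 also drives, were at 460 to 815 CPM in KO and 590 to 1700 CPM in WT. Fli1 (-0.16, SE 0.18), Nfe2 (-0.20, SE 0.37), Gfi1b (0.70, SE 0.48) and Mef2c (0.28, SE 0.25) did not pass over both sexes. With 1 library left out these moved to -0.05 for Fli1 (without female WT 2), 0.11 for Nfe2 (without female WT 2), 0.25 for Gfi1b (without male KO 1) and 0.14 for Mef2c (without female KO 1). DESeq2 called Runx1 (adjusted p = 0.0190), Cd9 (0.0446), F5 (0.00382) and Thbs1 (0.00469) over both sexes as higher in KO, where it called 29 of 18104 genes (0.16%) as higher. Cd9, F5 and Thbs1 were named for a small p over both sexes in these same libraries, among the 49 genes tested. Runx1 was named in advance, but from lists chosen with earlier results of these data known. Neither the calls of Runx1, Cd9, F5 and Thbs1 nor their lack of overlap is therefore separate support.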

How the data were processed

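The authors deposited whole-number counts by Entrez gene ID, without normalization, in a single table, per the file headers and values. The submitters' processing notes list HISAT2, featureCounts and mm10; settings, annotation and strand handling were not given in the sources used here. RNA was extracted from frozen, crushed spines with TRIzol and made into libraries with a stranded mRNA kit, per the labels' protocols. Symbols came from RefSeq on GRCm38.p6 (25275 of 27179 genes), exon lengths from GENCODE M21. Low counts were removed by filterByExpr (groups of 2, minimum count 10), which left 18104 genes, all 7 members among them. edgeR 4.0.16 (R 4.3.3) was used with TMM normalization and quasi-likelihood tests. KO was set against WT within each sex, and the sexes' differences against each other, in a fit of 4 group means (residual degrees of freedom 4), and over both sexes in a fit of sex plus genotype (5). Adjusted p-values are Benjamini-Hochberg over all tested genes, two-sided, with a threshold of 0.05. Log2 CPM used a prior count of 2. Alternatives used DESeq2 1.42.0 and limma 3.58.1. The members and lists were chosen with earlier results of these data known. Genes named besides the members were a fixed set of 12 and up to 3 per list with the smallest p over both sexes; some genes these rules name are not reported here. The 10 genes most like the members were taken by Pearson correlation among genes of mean 1 CPM or more; the same search for Pf4 and for Itgb3 alone was added after seeing the data.

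Library totals were 35181518 to 67575728 counts, and 3 counts correspond to 0.0392 to 0.0831 CPM. Poisson intervals cover counting error only. Replicates differed by more than counting noise (chi-square over its degrees of freedom, 131 to 645), so all 8 libraries were kept apart. On simulated counts for 17836 genes, the fit over both sexes called 89.9% of genes changed by 2 on the log2 scale, against 73.7% in males and 59.6% in females. The simulation held none of the differences in tissue makeup between the real libraries, so these shares do not measure what could be detected in them. In the real libraries edgeR called 0 of the 8 adipocyte markers over both sexes, at a median log2 fold change of -4.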

Additional observations from a re-analysis of the deposited data

How the results depend on the processing

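Of the members' results in edgeR, none passed the threshold under any alternative except Itgb3 in males in DESeq2 (1.26). Members called were 1 there and 0 in every other alternative and comparison. Over all genes DESeq2 called 481 in males, 144 in females, 141 over both sexes and 362 for the difference between the sexes; without a filter on low counts edgeR called 39 in males and 1 for the difference, with library totals 1 for the difference, and with the mitochondrial share 2 in females. Leaving out 1 library gave 0 to 33 in females and 0 to 9 for the difference, the highest without female WT 2 in each case. Without male WT 1 and female WT 2 together, an alternative chosen after seeing the data, it was 24 in females and 1 for the difference. limma voom called 0.

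Values near 0 changed sign. Leaving out 1 library, the male log2 fold change lay at -0.04 to 0.49 for Pf4, 0.00 to 1.39 for Ppbp, -0.08 to 0.56 for Itga2b and -0.03 to 0.58 for Gp5. The female value lay at -0.07 to 0.29 for Itgb3, -0.18 to 0.63 for Gp1ba, -0.83 to 0.50 for Gp9 and -0.77 to 0.35 for Gp5. Over both sexes it lay at -0.16 to 0.16 for Pf4, -0.21 to 0.11 for Itga2b, -0.18 to 0.30 for Gp5, -0.09 to 0.75 for Vwf, -0.18 to 0.50 for Tubb1, -0.49 to 0.11 for Nfe2 and -0.31 to 0.04 for Thpo. The female minus male effect lay at -0.51 to 0.91 for Ppbp, -0.80 to 0.01 for Gp1ba and -1.04 to 0.08 for Gp5. Over both sexes, library totals gave 0.08 for Itga2b and 0.11 for Gp5; no filter gave 0.00 for Itga2b and Gp5; DESeq2 gave 0.01 for Gp5, and its size factors 0.00 for Gp5. limma voom gave 0.00 for Pf4 and 0.06 for Gp5, and the mitochondrial covariate 0.01 for Thpo. Without male WT 1 and female WT 2 the value over both was 0.50 for Gp5, -0.26 for Tubb1, 0.09 for Fli1, 0.27 for Nfe2 and 0.07 for Thpo, and the female value was 0.35 for Gp5. For the difference between the sexes, Ppbp had -0.20 with library totals, -1.15 with the mitochondrial covariate and -0.40 without those libraries, where Gp1ba had 0.08. The cause was not tested.

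Replicate numbers are shared by the 4 groups, but same-numbered libraries did not deviate together (correlations of -0.53 to 0.18 between groups), so they are not taken as pairs. The lowest were -0.53 between male KO and female KO and -0.36 between male WT and female WT. There, libraries of unlike number deviated alike in part. Male KO 1 and female KO 2 both had a low mitochondrial share (4.56% and 4.66%), and its part in this was not tested. With the replicate number as a block edgeR again called 0 genes in each comparison, and Itgb3 in males had 1.22. Of the members, counting error was largest in Gp9 and Gp5, with coefficients of variation of 21.9% and 22.6%. The measured values were 43.6% and 33.4%.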
